A study of Mus musculus with 37 samples.

Results

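The CXC chemokines are small secreted proteins that recruit leukocytes through G protein-coupled receptors, and this account follows 9 of their genes in sorted mammary mature luminal cells of the mouse: Cxcl1, Cxcl2, Cxcl3, Cxcl5, Cxcl12, Cxcl14, Cxcl15, Cxcl16 and Cxcl17. They were matched by symbol to the Ensembl identifiers of the count tables and make up 9 of 52636 genes listed. Of the 9, 8 passed the filter on low counts and were among the 18426 genes tested, and Cxcl17 did not. The 9 were selected on their expression level (CPM) in all 12 groups, known from earlier results of these data, so their levels are a description, and the gene-wise tests below, run over all genes, are not independent evidence for the choice.

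The labels name 3 genotypes of Esr1, the gene of estrogen receptor alpha: WT, and the mutants D542G and Y541S, whose human equivalents are known as activating mutations of endocrine-resistant breast cancer. Mice of all groups were raised to 8 weeks, ovariectomized and implanted with pellets, and the glands were taken 8 days later. The pellets held placebo, E2 (estradiol), P4 (progesterone) or both hormones (E2+P4), so the placebo groups lacked ovarian hormones. Each of the 12 groups had 3 libraries, except WT P4 with 4, for 37 in all. The design text calls the samples biological replicates, no label says whether a sample was 1 animal or a pool, and p-values therefore measure the spread between these samples. No label states whether a mutant was heterozygous or homozygous or how the mutation was introduced.

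Members with the short ELR motif before the CXC cysteines, which include Cxcl1, Cxcl2, Cxcl3, Cxcl5 and Cxcl15, attract neutrophils, mainly through the receptor Cxcr2. Cxcl12 signals through Cxcr4, is scavenged by the atypical receptor Ackr3, and is known from stromal fibroblasts of the gland and as an estrogen-induced gene of breast cancer cells. Cxcl14 is an epithelial chemokine with no settled receptor. Cxcl16 is made as a membrane protein, binds Cxcr6, and is shed by the proteases Adam10 and Adam17. Cxcl17 is a chemokine of mucosal surfaces. Transcription of the ELR members is a textbook output of NF-kB signalling downstream of IL-1, TNF and Toll-like receptors.

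The ELR members lie side by side on chromosome 5 of GRCm38, all on the plus strand. In GENCODE M21, Cxcl5 spans 90759360 to 90761624, then follow Ppbp and Pf4, Cxcl3 (90786103 to 90789600), Cxcl15 (90794534 to 90803067), Cxcl1 (90891241 to 90893115) and Cxcl2 (90903871 to 90905938), 7 genes within 146579 bases. Promoter sequences of RefSeq (GRCm38.p6) were at hand for 6 members: Cxcl1, Cxcl2, Cxcl3, Cxcl12, Cxcl14 and Cxcl15. A single exact form of the NF-kB element, whose 10 letters are the capitals below, was searched on both strands in the 250 bases before the start site. No other form was searched, so a promoter without these letters may still hold an NF-kB site. This form was found in 3 of these 6, Cxcl1, Cxcl2 and Cxcl3, and in 28 of 32851 promoters of the same length (0.0852%). The stretches that hold it are shown with that of Cxcl15, their cluster neighbour, in which these letters were not found. They lie at chr5:90786001-90786100 (Cxcl3), chr5:90794434-90794533 (Cxcl15), chr5:90891145-90891240 (Cxcl1) and chr5:90903799-90903870 (Cxcl2), plus strand, 5′ to 3′, with the element in capitals, and end before the start of the gene in both RefSeq and GENCODE:
Cxcl3: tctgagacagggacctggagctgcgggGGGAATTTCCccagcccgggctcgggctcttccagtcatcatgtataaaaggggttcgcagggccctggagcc
Cxcl15: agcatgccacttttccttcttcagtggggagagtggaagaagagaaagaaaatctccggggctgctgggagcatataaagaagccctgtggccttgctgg
Cxcl1: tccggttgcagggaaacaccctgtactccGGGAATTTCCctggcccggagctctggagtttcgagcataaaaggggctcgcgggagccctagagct
Cxcl2: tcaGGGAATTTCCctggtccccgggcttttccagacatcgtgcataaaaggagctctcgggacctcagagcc

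The element begins 73 bases before the RefSeq start site in Cxcl3, 71 in Cxcl1 and 97 in Cxcl2. The estrogen response element, GGTCA and its inverted repeat TGACC with 3 bases between them, was in 0 of the 6 member promoters and in 0.0639% of all promoters. The progesterone and glucocorticoid receptor element, GNACA and TGTNC with 3 bases between them, was in 0 of the 6 and in 0.387% of all. The TATA box TATAAAA was found in Cxcl3 alone of the 6 (4.98% of all promoters), and GAAA repeated after 2 bases, a core of interferon-stimulated elements, in Cxcl14 alone (2.98%). All 4 were searched on both strands of the same window, and a match describes letters, not a bound site. The other tested members lie elsewhere: Cxcl12 on chromosome 6 (117168535 to 117181367), Cxcl14 on chromosome 13 (56288643 to 56296551) and Cxcl16 on chromosome 11 (70453983 to 70459984).

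Total counts ran from 25.69 M to 52.24 M per library. Markers of hormone-sensing luminal cells (10 genes, among them Krt8, Esr1 and Pgr) had a summed level of 10053 to 36115 CPM over the 37 libraries, against 37.2 to 912 for 9 basal, 38.5 to 4381 for 8 fibroblast and 3.03 to 167 for 12 leukocyte markers. Endothelial (7 genes), adipocyte (5) and cycling (6) markers summed to 33.4 to 479.7, 5.93 to 219 and 9.77 to 548 CPM. Luminal progenitor and alveolar markers (10 genes) summed to 1742 to 44763 CPM. They exceeded the hormone-sensing sum in WT E2 1 (14102 against 13129 CPM), WT E2 2 (44763 against 16995), WT E2 3 (34120 against 22461) and D542G P4 2 (14524 against 12278). Esr1 itself ranged from 9.73 CPM (WT E2) to 831 (WT placebo), and a change of Esr1 level does not check an amino acid mutation. Y541S placebo 5, WT P4 4 and WT P4 5 carry sample identifiers of a later number series, and Y541S placebo 5 is the least deep library. For several members it stands apart from the other 2 libraries of its group, and values without it are given where its removal ended a call or moved a called value by over 1.5 times, and for Cxcl2 in the placebo groups. In these bulk libraries, fewer cells of a type and less RNA per cell cannot be told apart.

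Levels are given as CPM, counts scaled to a common library size with TMM factors, per library in the order of the replicate numbers. Changes are log2 fold changes ± standard error from edgeR's quasi-likelihood fit over all 37 libraries, with p-values adjusted by Benjamini-Hochberg over the 18426 genes of each comparison. A gene is called at an adjusted p under 0.05, and means are ± SD (n = 3, or 4 for WT P4).

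**Figure D1:**
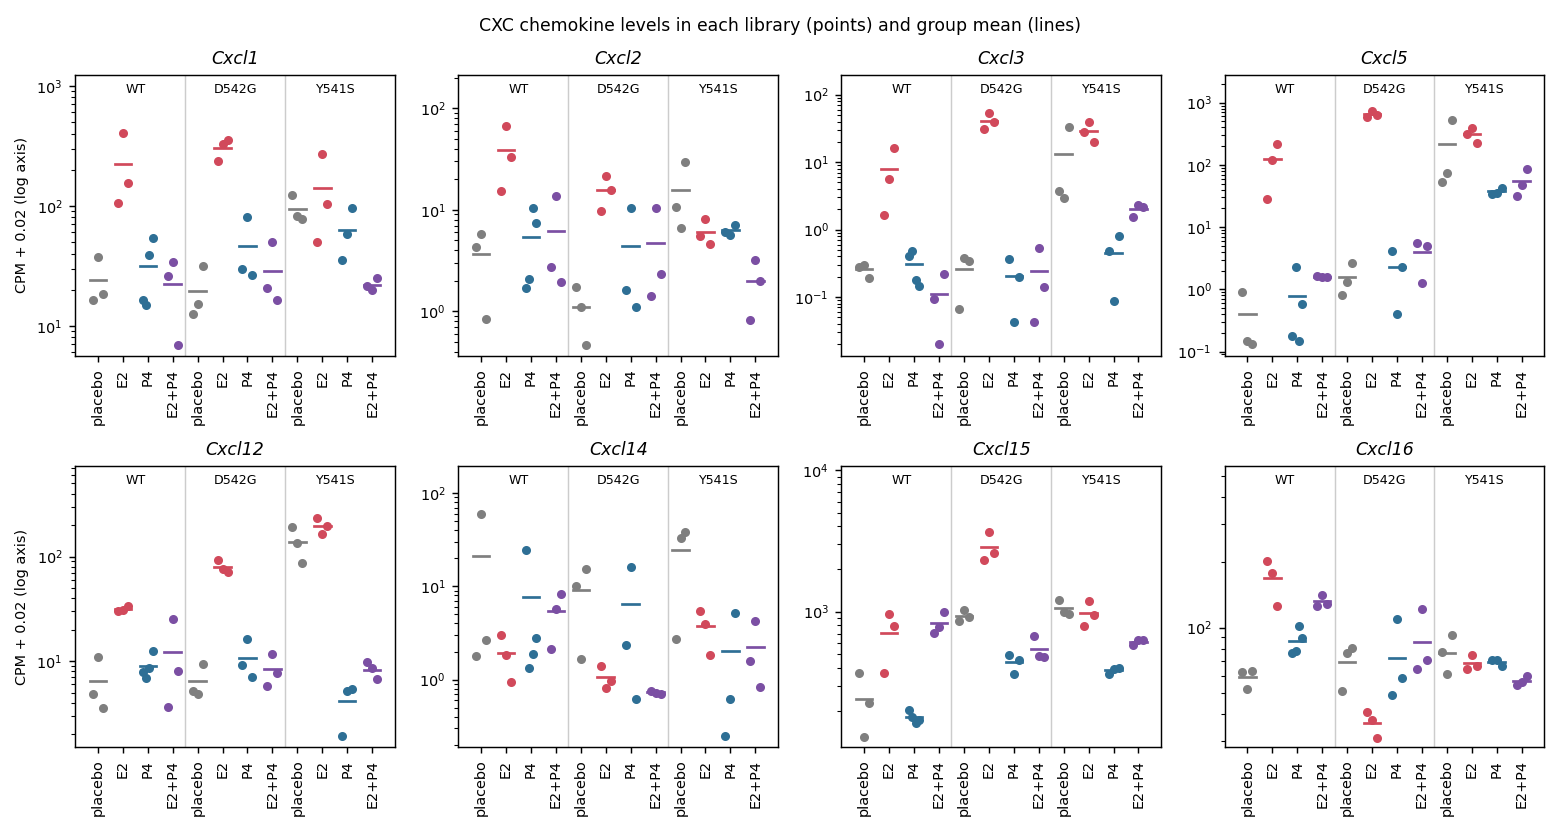
CPM plus 0.02 on a log axis (vertical) of the 8 tested chemokine genes in each of the 37 libraries, by treatment within WT, D542G and Y541S. Points are libraries and lines are group means. Cxcl1, Cxcl2, Cxcl3, Cxcl5 and Cxcl12 are high under E2 in WT and D542G and low again under E2+P4. In every Y541S placebo library Cxcl3, Cxcl5 and Cxcl12 are above all WT placebo libraries. For each of these genes, only the highest Y541S placebo library reaches the range of Y541S E2, and the others lie below it.

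In WT luminal cells estradiol raised most members. Under E2 against placebo, 7 of the 8 tested members were called higher and none lower, where 31.5% of all tested genes were called (15.6% higher). The 7 were Cxcl1, Cxcl2, Cxcl3, Cxcl5, Cxcl12, Cxcl15 and Cxcl16. The median change of the 8 members was 2.74 log2, beside 0.03 for all genes. The members' levels were known when they were chosen, so these counts and medians, here and in the comparisons that follow, describe the 8 and support nothing about them as a group. Under P4 none of the 8 was called (1.43% of all genes; 1 at an unadjusted p under 0.05, and 0 by DESeq2's Wald test), and under E2+P4 2 were, Cxcl15 and Cxcl16, both higher (23.4%, 11.8% higher). Leukocyte markers moved with E2: their summed CPM was 3.03 to 6.97 under WT placebo and 33.5 to 167 under WT E2, with none of the 12 at 0 in either whole group. Luminal progenitor and alveolar markers (10 genes) summed to 3688 to 4344 CPM under placebo and 14102 to 44763 under E2. The part of either in the chemokine changes was not tested.

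In D542G cells 7 members changed under E2, 6 higher and 1 lower. Called higher were Cxcl1, Cxcl2, Cxcl3, Cxcl5, Cxcl12 and Cxcl15, called lower was Cxcl16, and 15.7% of all genes were called (8.36% higher and 7.34% lower). The members' median change was 3.74 log2, against 0.01 over all genes. P4 alone and E2+P4 each left 1 called member, Cxcl15, lower in both (18.4% of all genes, 8.88% lower for P4; 25.4%, 12.4% lower for E2+P4). The leukocyte sum was 5.93 to 8.64 CPM under D542G placebo and 7.97 to 106 under D542G E2. Its lowest E2 value, in D542G E2 2, stood beside the highest Cxcl3, Cxcl5 and Cxcl15 of the 37 libraries. Its highest, in D542G E2 3, stood beside the highest Cxcl1 of the group. Progenitor and alveolar markers summed to 1742 to 3302 and 1845 to 3740.5 CPM in these groups. The part of either kind of cell in the D542G changes was not tested.

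In Y541S cells no member was called under E2 against placebo (4.65% of all genes; 1 at an unadjusted p under 0.05, and 0 by DESeq2's Wald test). For Cxcl3 and Cxcl5 the E2 libraries overlapped placebo only through Y541S placebo 5. Y541S placebo 2 and Y541S placebo 3 held 3.67 and 2.92 CPM of Cxcl3, below the 19.5 to 39.2 of the E2 libraries. For Cxcl5 they held 52.2 and 75.1 CPM, below 226 to 389.9 under E2. P4 lowered 4 members, Cxcl3, Cxcl5, Cxcl12 and Cxcl15 (11.3% of all genes, 6.13% lower), and E2+P4 lowered 5, Cxcl1, Cxcl2, Cxcl3, Cxcl12 and Cxcl15 (18.5%, 10.1% lower). Without Y541S E2+P4 1, or without Y541S E2+P4 3, the 3 comparisons with placebo together had 5 called pairs of a member and a comparison, in place of 9. The members' median change was -2.0 log2 under P4 and -2.41 under E2+P4, against -0.02 and -0.04 over all genes. Against WT placebo, Y541S placebo had 5 members higher, Cxcl1, Cxcl3, Cxcl5, Cxcl12 and Cxcl15 (13.4% of all genes, 7.18% higher), while D542G placebo had Cxcl15 alone (2.02%, 1.24% higher). The changes in Y541S and the comparison of the placebo groups share the Y541S placebo libraries. Leukocyte markers summed to 10.5, 19.6 and 66.6 CPM in these 3 libraries, above the 3.03 to 6.97 of WT placebo, and to 12.9 to 29.5 under P4 and 18.3 to 35.7 under E2+P4. Progenitor and alveolar markers summed to 5281, 3398 and 8503 CPM under placebo. Y541S placebo 5, with the highest Cxcl2, Cxcl3 and Cxcl5 of its group, had the highest of both sums. Their part in these differences was not tested.

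**Figure D2:**
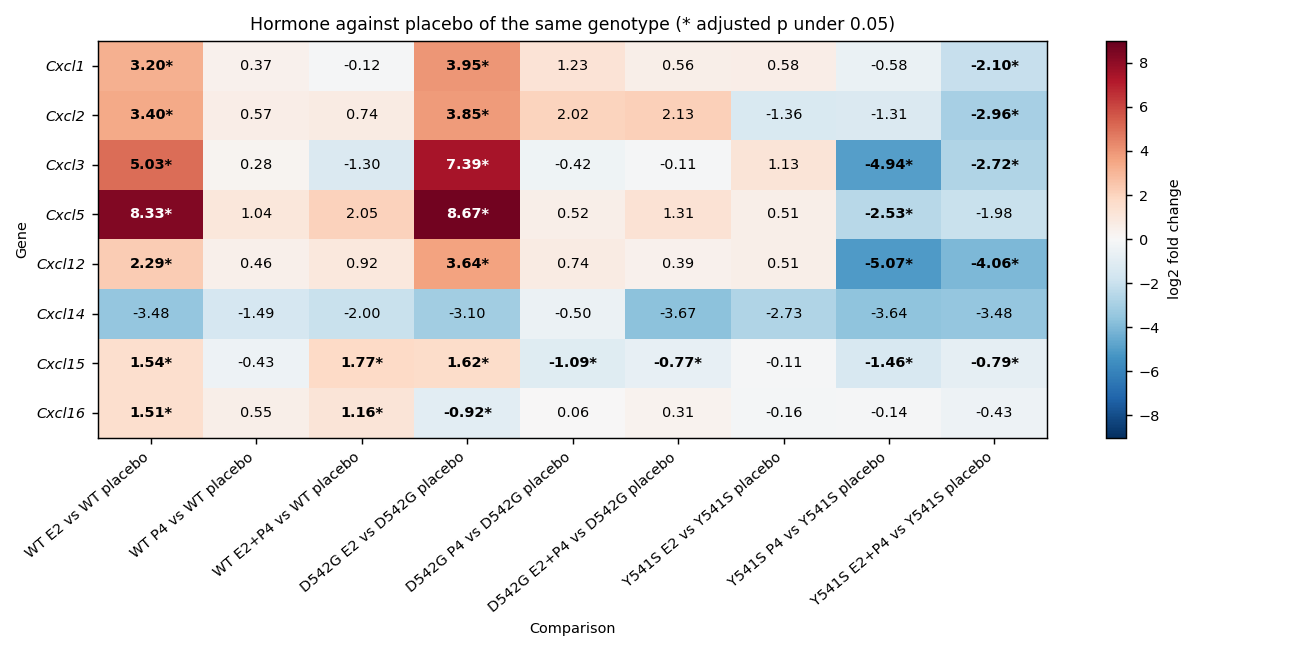
Log2 fold change of each tested member (rows) for each hormone against the placebo of the same genotype (columns), with colour from blue (lower) to red (higher) and an asterisk at an adjusted p under 0.05. The E2 columns of WT and D542G are red for the cluster genes and Cxcl12, and the P4 and E2+P4 columns of Y541S are blue.

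Adding P4 to E2 lowered most of the members that E2 had raised in WT and D542G. Against E2, E2+P4 had 5 lower in WT, Cxcl1, Cxcl2, Cxcl3, Cxcl5 and Cxcl12 (18.5% of all genes, 8.28% lower). In D542G, 5 were lower, Cxcl1, Cxcl3, Cxcl5, Cxcl12 and Cxcl15, and Cxcl16 was higher (20.9%, 10% higher, 10.8% lower). In Y541S, 3 were lower, Cxcl1, Cxcl3 and Cxcl12 (10.4%, 5.94% lower). Against P4 alone, E2+P4 had Cxcl15 and Cxcl16 higher in WT (23.2%, 12% higher) and no called member in D542G (5.17%; 1 at an unadjusted p under 0.05, and 0 by DESeq2's Wald test) or Y541S (1.68%; 3 at an unadjusted p under 0.05, and 0 by DESeq2's Wald test). The comparisons against E2 share their E2 libraries with those of E2 against placebo. Progenitor and alveolar markers summed to 14102 to 44763 CPM in WT E2 and 4405 to 8612 in WT E2+P4, but to 1845 to 3740.5 in D542G E2 and 4820.4 to 9846 in D542G E2+P4. Hormone-sensing markers summed to 33022 to 36115 CPM in D542G E2 and 10053 to 12056 in D542G E2+P4, and to 13129 to 22461 and 12937 to 22507 in the same groups of WT. Leukocyte sums overlapped between E2 and E2+P4 in both genotypes (33.5 to 167 and 17.2 to 98.7 CPM in WT, 7.97 to 106 and 38.7 to 75.9 in D542G). The part of these markers' cells in the falls was not tested.

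Between genotypes under the same hormone, D542G E2 stood above WT E2 for Cxcl3, Cxcl5, Cxcl12 and Cxcl15 and below it for Cxcl16 (29.1% of all genes, 15.4% higher, 13.8% lower). Y541S E2 was above WT E2 for Cxcl12 and below it for Cxcl16 (12.3%, 6.49% higher, 5.79% lower). Under P4, Cxcl15 was higher in D542G (13%, 6.24% higher), and Cxcl5 and Cxcl15 in Y541S (27.6%, 14.6% higher). With E2+P4, no member was called in D542G against WT (6.69%; 3 at an unadjusted p under 0.05, and 0 by DESeq2's Wald test), while Y541S had Cxcl3 and Cxcl5 higher and Cxcl16 lower (14.5%, 6.03% higher, 8.5% lower).

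**Figure D3:**
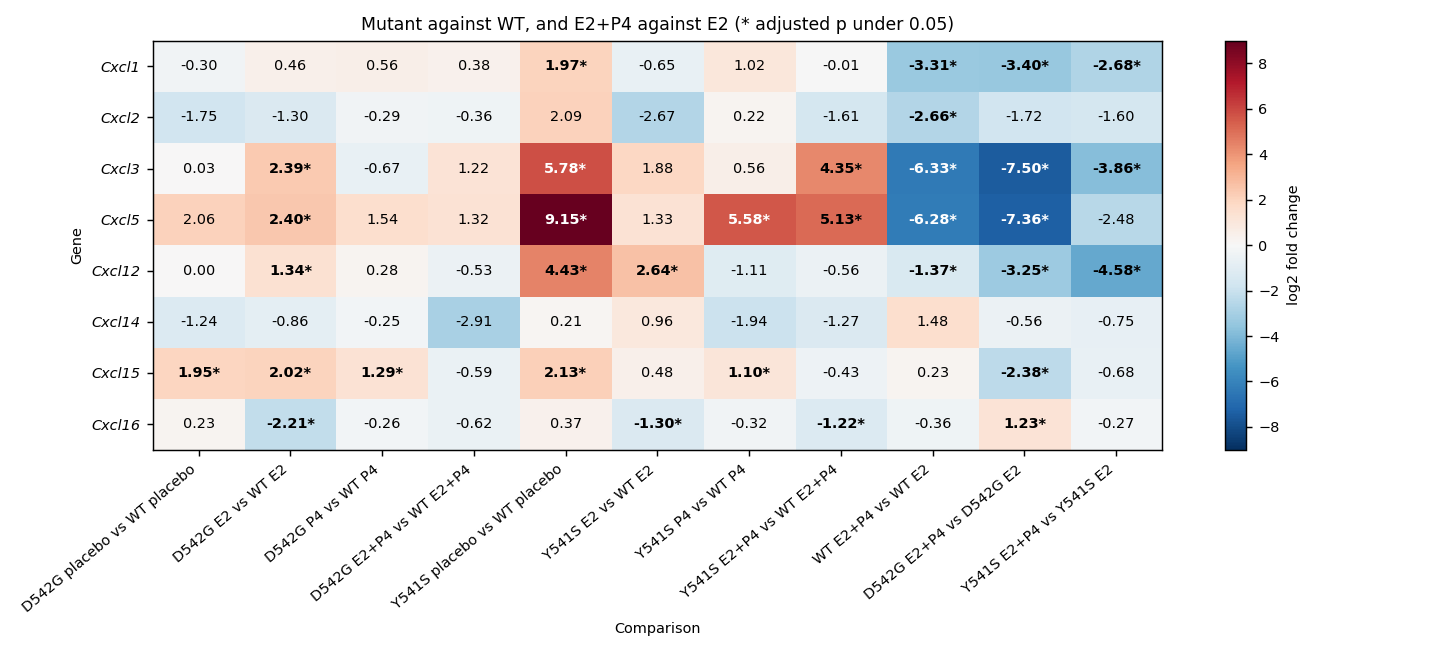
Log2 fold change of each tested member (rows) for mutant against WT under each treatment and for E2+P4 against E2 in each genotype (columns), with colour from blue (lower) to red (higher) and an asterisk at an adjusted p under 0.05. Y541S placebo against WT placebo is red for Cxcl1, Cxcl2, Cxcl3, Cxcl5, Cxcl12 and Cxcl15, with an asterisk for all of these but Cxcl2, and E2+P4 against E2 is blue for Cxcl1, Cxcl3 and Cxcl12 in all 3 genotypes.

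The difference between a mutant's hormone response and that of WT was itself tested, and every called difference was negative. The WT change had a positive sign in each, with a smaller or negative change in the mutant. That WT change was itself not called for Cxcl3 under P4 (0.28 ± 0.99 log2, adjusted p = 0.948). Nor was it for Cxcl12 under P4 (0.46 ± 0.46 log2, adjusted p = 0.731) or E2+P4 (0.92 ± 0.49 log2, adjusted p = 0.185). For E2, Cxcl16 differed in D542G (9.23% of all genes, 4.71% lower), and Cxcl2, Cxcl5, Cxcl15 and Cxcl16 in Y541S (8.02%, 4.01% lower). For P4, none differed in D542G (3.35%; 0 at an unadjusted p under 0.05, and 0 by DESeq2's Wald test), and Cxcl3 and Cxcl12 did in Y541S (7.33%, 3.87% lower). For E2+P4, Cxcl15 differed in D542G (4.3%, 3.14% lower), and Cxcl12, Cxcl15 and Cxcl16 in Y541S (8.68%, 5.68% lower). In all, 11 of 48 pairs of a member and a response were called, and 17 with DESeq2's Wald test. The pair of Cxcl5 and E2 in Y541S is a description, since the WT change it contains was known when the genes were chosen. These tests use the same placebo libraries as the comparisons above.

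Cxcl1, the mouse neutrophil attractant KC, was at 16.5, 37.4 and 18.4 CPM in the WT placebo libraries and at 105, 405 and 154 under E2. The groups did not overlap, and WT E2 2 held the highest level of all 37 libraries. The rise was 9.18-fold, 3.20 ± 0.68 on the log2 scale (adjusted p = 0.00064). With E2+P4 in WT the level was 26.1, 33.9 and 6.89 CPM, with 2 libraries in the range of placebo and 1 below it, a change of -3.31 ± 0.69 log2 (adjusted p = 0.000893) from E2 alone. P4 alone gave 16.5, 14.9, 39.1 and 54.4 CPM (0.37 ± 0.60 log2, adjusted p = 0.852), overlapping placebo.

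In D542G the placebo libraries held 12.4, 15.2 and 31.3 CPM of Cxcl1 and the E2 libraries 234, 326 and 353, again without overlap, a rise of 3.95 ± 0.71 on the log2 scale (adjusted p = 0.000227). E2+P4 brought 20.5, 49.7 and 16.3 CPM, a change of -3.40 ± 0.69 log2 (adjusted p = 0.000574) from E2. Under P4 the level was 29.9, 81.3 and 26.7 CPM, with D542G P4 2 above the others (1.23 ± 0.64 log2, adjusted p = 0.184). The response to E2 differed from that of WT by 0.76 ± 0.89 (adjusted p = 0.692), within its error.

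Y541S placebo libraries already held 123, 82.4 and 78.2 CPM of Cxcl1, all above the highest WT placebo library, a difference of 1.97 ± 0.65 on the log2 scale (adjusted p = 0.0423). Leaving out any 1 of WT placebo 1, WT placebo 3, Y541S placebo 2, Y541S placebo 3 or Y541S placebo 5 ended the call for Cxcl1 in Y541S placebo against WT placebo (log2 1.74 to 2.09, adjusted p 0.0556 to 0.169), and the call was also lost with no filter on low counts and without the 3 libraries of the later number series (log2 1.97 to 2.09, adjusted p 0.0519 to 0.0764). Under E2 the 3 libraries spread over 49.6, 269.9 and 104 CPM and overlapped placebo (0.58 ± 0.63 log2, adjusted p = 0.7). The E2 response was -2.62 ± 0.90 log2 from that of WT, which missed the threshold (adjusted p = 0.0707). P4 gave 35.1, 58.7 and 95.9 CPM, and E2+P4 gave 21.3, 19.96 and 24.9, close to each other. The change under E2+P4 was -2.10 ± 0.65 log2 (adjusted p = 0.0245) against placebo and -2.68 ± 0.67 log2 (adjusted p = 0.008) against E2. The call for Cxcl1 in Y541S E2+P4 against Y541S placebo was lost without any 1 of Y541S placebo 2, Y541S E2+P4 1, Y541S E2+P4 2 or Y541S E2+P4 3 (log2 -1.86 to -2.20, adjusted p 0.0653 to 0.0838). Cxcl1 in Y541S E2+P4 against Y541S E2 missed the threshold without Y541S E2 2 (log2 -1.80, adjusted p 0.0961).

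Cxcl2, the attractant MIP-2 and nearest neighbour of Cxcl1, was the lower of the pair, with group means of 1.08 ± 0.628 CPM in D542G placebo to 38.5 ± 26.4 in WT E2. WT libraries held 4.26, 5.82 and 0.814 CPM under placebo and 15.4, 67.2 and 32.9 under E2, without overlap, a rise of 3.40 ± 0.97 on the log2 scale (adjusted p = 0.00806). E2+P4 gave 2.71, 13.6 and 1.95 CPM, of which only WT E2+P4 2 lay above placebo. Against E2 this was a change of -2.66 ± 0.94 log2 (adjusted p = 0.0468). Without any 1 of WT E2 2, WT E2 3, WT E2+P4 1 or WT E2+P4 3, Cxcl2 in WT E2+P4 against WT E2 was not called (log2 -1.99 to -2.76, adjusted p 0.0583 to 0.194), and the call was also lost with DESeq2's size factors, with no filter on low counts and in a fit of only the groups compared (log2 -2.62 to -2.66, adjusted p 0.0503 to 0.135). Without WT E2+P4 2 the log2 change of Cxcl2 in WT E2+P4 against WT E2 was -4.04 (adjusted p = 0.0155).

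D542G libraries went from 1.70, 1.09 and 0.448 CPM of Cxcl2 under placebo to 9.71, 21.4 and 15.8 under E2, a rise of 3.85 ± 1.0 on the log2 scale (adjusted p = 0.00802) with no overlap. P4 and E2+P4 each had a high second library, at 1.59, 10.5 and 1.09 and 1.41, 10.4 and 2.30 CPM. Neither was called (2.02 ± 0.94 log2, adjusted p = 0.134 for P4; 2.13 ± 0.94 log2, adjusted p = 0.0975 for E2+P4). Among Y541S libraries, placebo held 10.6, 6.55 and 29.4 CPM and E2 5.56, 8.02 and 4.57, an overlap in which the highest E2 library exceeded the lowest placebo library alone (-1.36 ± 0.90 log2, adjusted p = 0.469). Their E2 response differed from that of WT by -4.76 ± 1.32 log2 (adjusted p = 0.0228). Leaving out any 1 of WT placebo 3, WT E2 2, Y541S E2 1, Y541S E2 3 or Y541S placebo 5 ended the call for Cxcl2 in the E2 response of Y541S minus that of WT (log2 -3.90 to -4.70, adjusted p 0.0611 to 0.0858), and the call was also lost without the 3 libraries of the later number series, without WT placebo 2, WT P4 2 and Y541S placebo 5 together and in a fit of only the groups compared (log2 -3.88 to -4.82, adjusted p 0.0507 to 0.0755). E2+P4 in Y541S gave 0.809, 3.17 and 1.97 CPM, below all placebo libraries, a change of -2.96 ± 0.96 log2 (adjusted p = 0.0303). The call for Cxcl2 in Y541S E2+P4 against Y541S placebo was lost without any 1 of Y541S E2+P4 1, Y541S E2+P4 3 or Y541S placebo 5 (log2 -2.10 to -2.95, adjusted p 0.0949 to 0.135), and the call was also lost without the 3 libraries of the later number series and without WT placebo 2, WT P4 2 and Y541S placebo 5 together (log2 -2.10 to -2.11, adjusted p 0.12 to 0.125). Y541S placebo was not called against WT placebo (2.09 ± 0.92 log2, adjusted p = 0.141). The groups did not overlap, and without Y541S placebo 5, the highest of them, the log2 change was 1.24 (adjusted p = 0.513).

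Cxcl3, a further ELR attractant, was close to undetected without hormone in WT and D542G. It had 0.261, 0.281 and 0.168 CPM in WT placebo, or 27 counts in the 3 libraries, and 1.62, 5.65 and 16.3 under E2. The E2 libraries differed widely among themselves but lay above every placebo library, a rise of 5.03 ± 1.07 on the log2 scale (adjusted p = 0.000603). With E2+P4 WT libraries held 0.0720, 0 and 0.200 CPM, the lowest group of all 12, -6.33 ± 1.17 log2 from E2 (adjusted p = 0.000279). D542G libraries went from 0.0454, 0.363 and 0.320 CPM under placebo to 30.6, 53.6 and 39.6 under E2, the highest group, a rise of 7.39 ± 1.16 on the log2 scale (adjusted p = 4.99e-05). With E2+P4 the level was 0.0223, 0.518 and 0.123 CPM, a change from E2 of -7.5 ± 1.17 log2 (adjusted p = 2.68e-05). D542G E2 exceeded WT E2 by 2.39 ± 0.90 on the log2 scale (adjusted p = 0.0456) with no overlap. Cxcl3 in D542G E2 against WT E2 missed the threshold without any 1 of WT E2 1, WT E2 2, D542G E2 1, D542G E2 2 or D542G E2 3 (log2 1.91 to 2.57, adjusted p 0.0593 to 0.157), and the call was also lost with no filter on low counts and in a fit of only the groups compared (log2 2.37 to 2.39, adjusted p 0.0702 to 0.0753).

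In Y541S placebo Cxcl3 was at 3.67, 2.92 and 33.1 CPM, the last value in Y541S placebo 5, and all 3 were above every WT placebo library. The difference was 5.78 ± 1.10 on the log2 scale (adjusted p = 0.000516). Without Y541S placebo 5 the log2 change of Cxcl3 in Y541S placebo against WT placebo was 3.78 (adjusted p = 0.00928). E2 gave 28.3, 39.2 and 19.5 CPM, overlapping placebo only through that library (1.13 ± 0.87 log2, adjusted p = 0.546). Under P4 the level was 0.457, 0.0670 and 0.778 CPM, below all placebo libraries, a change of -4.94 ± 1.04 log2 (adjusted p = 0.00225). The call for Cxcl3 in Y541S P4 against Y541S placebo was lost in a fit of only the groups compared (log2 -5.0, adjusted p 0.0715). Without Y541S placebo 5 the log2 change of Cxcl3 in Y541S P4 against Y541S placebo was -2.94 (adjusted p = 0.0322). The P4 response differed from that of WT by -5.22 ± 1.40 log2 (adjusted p = 0.0222). Without any 1 of WT placebo 3, Y541S P4 1, Y541S P4 2 or Y541S placebo 5, Cxcl3 in the P4 response of Y541S minus that of WT was not called (log2 -3.22 to -5.28, adjusted p 0.0533 to 0.146), and the call was also lost without the 3 libraries of the later number series and without WT placebo 2, WT P4 2 and Y541S placebo 5 together (log2 -3.17 to -3.77, adjusted p 0.142 to 0.251). E2+P4 gave 1.54, 2.30 and 2.15 CPM, between placebo and P4. The change was -2.72 ± 0.92 log2 (adjusted p = 0.0381) from placebo and -3.86 ± 0.97 log2 (adjusted p = 0.00821) from E2. Leaving out any 1 of Y541S E2+P4 1, Y541S E2+P4 2, Y541S E2+P4 3 or Y541S placebo 5 ended the call for Cxcl3 in Y541S E2+P4 against Y541S placebo (log2 -0.72 to -2.84, adjusted p 0.0938 to 0.613), and the call was also lost with no filter on low counts, without the 3 libraries of the later number series, without WT placebo 2, WT P4 2 and Y541S placebo 5 together and in a fit of only the groups compared (log2 -0.72 to -2.77, adjusted p 0.0594 to 0.614). It still exceeded WT E2+P4 by 4.35 ± 1.12 on the log2 scale (adjusted p = 0.00797). The call for Cxcl3 in Y541S E2+P4 against WT E2+P4 was lost without WT E2+P4 2 (log2 3.86, adjusted p 0.0512).

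Cxcl5, the attractant LIX, ranged from 0.112 CPM in WT placebo 3 to 736 in D542G E2 2. WT libraries held 0.888, 0.128 and 0.112 CPM under placebo and 28.3, 121 and 219 under E2, a change of 8.33 ± 1.15 log2, given as a description because this value was among those known when the genes were chosen. With E2+P4 the 3 WT libraries were nearly equal, at 1.61, 1.57 and 1.55 CPM. All lay above WT placebo (2.05 ± 1.07 log2, adjusted p = 0.177, not called) and below E2, with a change of -6.28 ± 1.01 log2 (adjusted p = 5.36e-05). The p-values of Cxcl5 comparisons that contain WT E2 or WT placebo draw on the same libraries. They are therefore not independent of the choice of genes. P4 alone gave 0.161, 2.24, 0.128 and 0.573 CPM (1.04 ± 1.08 log2, adjusted p = 0.745).

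D542G placebo libraries had 0.795, 1.32 and 2.64 CPM of Cxcl5 and E2 libraries 584, 736 and 626, the highest group, a 407-fold rise, 8.67 ± 1.11 on the log2 scale (adjusted p = 3.15e-06). E2+P4 gave 5.63, 1.24 and 4.998 CPM, a change of -7.36 ± 1.04 log2 (adjusted p = 7.33e-06) from E2. D542G E2 exceeded WT E2 by 2.40 ± 0.83 on the log2 scale (adjusted p = 0.0282). Cxcl5 in D542G E2 against WT E2 missed the threshold without any 1 of WT E2 1, WT E2 2 or D542G E2 2 (log2 1.93 to 2.39, adjusted p 0.0622 to 0.113), and the call was also lost with no filter on low counts (log2 2.40, adjusted p 0.0579). The responses to E2 in D542G and WT differed by 0.34 ± 1.39 log2, less than the error, likewise a description.

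Without hormone, Y541S libraries already held 52.2, 75.1 and 524 CPM of Cxcl5, the last in Y541S placebo 5. The lowest of them was far above the highest WT placebo library, a difference of 9.15 ± 1.18 on the log2 scale (adjusted p = 3.44e-06), and 7.38 (adjusted p = 9.13e-06) without Y541S placebo 5. E2 gave 309.5, 389.9 and 226 CPM, overlapping placebo only through Y541S placebo 5 (0.51 ± 0.79 log2, adjusted p = 0.806). The E2 response was -7.82 ± 1.34 log2 from that of WT, a description that contains the WT change above and the same placebo library. P4 gave 34.3, 35.2 and 42.9 CPM and E2+P4 31.5, 47.8 and 85.95. The change under P4 was -2.53 ± 0.83 log2 (adjusted p = 0.0464). Without any 1 of Y541S P4 1, Y541S P4 2, Y541S P4 3 or Y541S placebo 5, Cxcl5 in Y541S P4 against Y541S placebo was not called (log2 -0.76 to -2.64, adjusted p 0.123 to 0.58), and the call was also lost with no filter on low counts, without the 3 libraries of the later number series, without WT placebo 2, WT P4 2 and Y541S placebo 5 together and in a fit of only the groups compared (log2 -0.76 to -2.59, adjusted p 0.092 to 0.578). E2+P4 was called neither against placebo (-1.98 ± 0.81 log2, adjusted p = 0.0919) nor against E2 (-2.48 ± 0.83 log2, adjusted p = 0.0531). Both groups stayed above their WT counterparts, by 5.58 ± 0.90 on the log2 scale (adjusted p = 3.19e-05) under P4 and 5.13 ± 0.97 on the log2 scale (adjusted p = 0.000491) under E2+P4. The lowest Y541S library of the 12, at 31.5 CPM, was above the highest WT library outside E2, at 2.24.

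Cxcl15, known as lungkine from the airway epithelium of the mouse, was the most abundant member. Per kilobase of its longest coding transcript, its mean was the highest of the 9 in all 12 groups, from 84.3 CPM per kilobase in WT P4 to 1344 in D542G E2. WT libraries held 369.9, 130.3 and 227 CPM under placebo and 370.4, 954 and 788 under E2, the first of them barely above the highest placebo library. The rise was 1.54 ± 0.28 on the log2 scale (adjusted p = 0.000105). The call for Cxcl15 in WT E2 against WT placebo was lost in a fit of only the groups compared (log2 1.51, adjusted p 0.0633). E2+P4 gave 702, 778 and 994 CPM, a rise of 1.77 ± 0.28 on the log2 scale (adjusted p = 2.6e-05) against placebo, and P4 gave 200.02, 181, 164 and 172 (-0.43 ± 0.25 log2, adjusted p = 0.47). E2+P4 was not called against E2 (0.23 ± 0.27 log2, adjusted p = 0.626), where its 4 cluster neighbours Cxcl1, Cxcl2, Cxcl3 and Cxcl5 were called lower. Against P4, E2+P4 was higher by 2.20 ± 0.26 on the log2 scale (adjusted p = 2.69e-07).

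D542G placebo libraries held 853, 1035 and 911 CPM of Cxcl15, all above the highest WT placebo library, 1.95 ± 0.28 on the log2 scale (adjusted p = 0.000195) higher. Under E2 the level was 2336, 3634 and 2609.5 CPM, above placebo by 1.62 ± 0.28 on the log2 scale (adjusted p = 0.000162) and above WT E2 by 2.02 ± 0.28 on the log2 scale (adjusted p = 4.51e-06). P4 gave 497, 362 and 454 CPM, a change of -1.09 ± 0.28 log2 (adjusted p = 0.00665) from placebo that still left it 1.29 ± 0.25 on the log2 scale (adjusted p = 0.00101) above WT P4. Leaving out D542G P4 2 ended the call for Cxcl15 in D542G P4 against D542G placebo (log2 -0.97, adjusted p 0.0503). E2+P4 gave 676, 488 and 480.3 CPM, below both E2, at -2.38 ± 0.29 log2 (adjusted p = 7.17e-07), and placebo, at -0.77 ± 0.27 log2 (adjusted p = 0.0395). The call for Cxcl15 in D542G E2+P4 against D542G placebo was lost without any 1 of D542G placebo 1, D542G placebo 2, D542G placebo 3, D542G E2+P4 2 or D542G E2+P4 3 (log2 -0.68 to -0.83, adjusted p 0.0575 to 0.132), and the call was also lost without the 3 libraries of the later number series (log2 -0.75, adjusted p 0.0541). The response to E2+P4 thus differed from that of WT by -2.53 ± 0.39 log2 (adjusted p = 0.000359).

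Y541S placebo libraries held 1217, 999 and 958 CPM of Cxcl15, 2.13 ± 0.28 on the log2 scale (adjusted p = 6.07e-06) above WT placebo. E2 left it at 797, 1197 and 948 CPM (-0.11 ± 0.27 log2, adjusted p = 0.891), and the E2 response differed from that of WT by -1.65 ± 0.39 log2 (adjusted p = 0.00787). The call for Cxcl15 in the E2 response of Y541S minus that of WT was lost in a fit of only the groups compared (log2 -1.69, adjusted p 0.154). P4 gave 361, 394 and 399.7 CPM, a change of -1.46 ± 0.28 log2 (adjusted p = 0.000925), and stayed above WT P4 by 1.10 ± 0.25 on the log2 scale (adjusted p = 0.00158). E2+P4 gave 578, 626 and 627 CPM, a change of -0.79 ± 0.27 log2 (adjusted p = 0.0428). Cxcl15 in Y541S E2+P4 against Y541S placebo missed the threshold without any 1 of Y541S placebo 2, Y541S placebo 3, Y541S E2+P4 1, Y541S E2+P4 2 or Y541S E2+P4 3 (log2 -0.68 to -0.83, adjusted p 0.0733 to 0.148), and the call was also lost with no filter on low counts and without the 3 libraries of the later number series (log2 -0.79 to -0.86, adjusted p 0.0559 to 0.0568). The response to E2+P4 differed from that of WT by -2.56 ± 0.39 log2 (adjusted p = 8.03e-05).

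Cxcl12, the ligand of Cxcr4, followed the ELR genes under E2 and had its highest levels in Y541S. WT libraries held 4.80, 10.98 and 3.51 CPM under placebo and 30.2, 30.7 and 33.9 under E2, a rise of 2.29 ± 0.51 on the log2 scale (adjusted p = 0.000893). E2+P4 gave 3.65, 25.02 and 8.03 CPM, with WT E2+P4 2 near the E2 libraries, a change of -1.37 ± 0.49 log2 (adjusted p = 0.0494) from E2. Without any 1 of WT E2 1, WT E2 2, WT E2 3, WT E2+P4 1 or WT E2+P4 3, Cxcl12 in WT E2+P4 against WT E2 was not called (log2 -0.94 to -1.41, adjusted p 0.0707 to 0.204), and the call was also lost with DESeq2's size factors, with no filter on low counts, without the 3 libraries of the later number series and in a fit of only the groups compared (log2 -1.33 to -1.39, adjusted p 0.0547 to 0.285). Without WT E2+P4 2 the log2 change of Cxcl12 in WT E2+P4 against WT E2 was -2.44 (adjusted p = 0.00124). D542G libraries went from 5.11, 4.88 and 9.32 to 92.7, 75.9 and 71.6 CPM under E2, without overlap, a rise of 3.64 ± 0.53 on the log2 scale (adjusted p = 1.9e-05). E2+P4 in D542G gave 5.72, 11.8 and 7.74 CPM, a change of -3.25 ± 0.52 log2 (adjusted p = 4.08e-05). D542G E2 exceeded WT E2 by 1.34 ± 0.49 on the log2 scale (adjusted p = 0.0378). Leaving out any 1 of WT E2 1, WT E2 2, WT E2 3, D542G E2 1, D542G E2 2 or D542G E2 3 ended the call for Cxcl12 in D542G E2 against WT E2 (log2 1.22 to 1.42, adjusted p 0.0545 to 0.102), and the call was also lost with no filter on low counts (log2 1.33, adjusted p 0.0618).

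Y541S placebo libraries held 193, 136 and 87.4 CPM of Cxcl12, above every library of WT under any treatment, 21.5-fold WT placebo (4.43 ± 0.55 log2, adjusted p = 2.06e-06). E2 kept it at 232, 165 and 197 CPM (0.51 ± 0.48 log2, adjusted p = 0.642), and this exceeded WT E2 by 2.64 ± 0.51 on the log2 scale (adjusted p = 0.000869). P4 brought it to 1.90, 5.12 and 5.36 CPM, a 33.6-fold fall (-5.07 ± 0.57 log2, adjusted p = 2.01e-06), and E2+P4 to 9.68, 8.51 and 6.68, a change of -4.06 ± 0.54 log2 (adjusted p = 8.73e-06) from placebo and -4.58 ± 0.56 log2 (adjusted p = 2.28e-06) from E2. The groups did not overlap in any of these 3. The responses to P4 and to E2+P4 differed from those of WT by -5.54 ± 0.72 (adjusted p = 4.09e-05) and -4.98 ± 0.72 log2 (adjusted p = 3.75e-05). These calls kept their direction and their side of the threshold in each alternative run, the removal of Y541S placebo 5 included.

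Fibroblast markers moved with Cxcl12 in part. Their summed level (8 genes) was 1375 to 4381 CPM in Y541S placebo and 924 to 1249 in Y541S E2, against 38.5 to 305 in WT placebo, 104 to 135 in WT E2 and 488 to 688 in Y541S P4. None of the 8 was at 0 in a whole group. In Y541S placebo Dcn, the proteoglycan decorin gene, was at 205 to 4054 CPM, Fn1, the fibronectin gene, at 179 to 933, the collagen gene Col1a1 at 3.06 to 54.3, Lum at 0.584 to 5.32 and Dpt at 0.147 to 1.04. The lowest sum of that group, in Y541S placebo 5, stood beside its lowest Cxcl12. That library held the group's lowest Dcn but its highest Fn1, Col1a1, Lum and Dpt, so the markers did not move together. In Y541S E2, Fn1 was at 630 to 1020 CPM and Col1a1 at 1.03 to 4.16. The part of fibroblast RNA in the Cxcl12 levels was not tested.

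**Figure D4:**
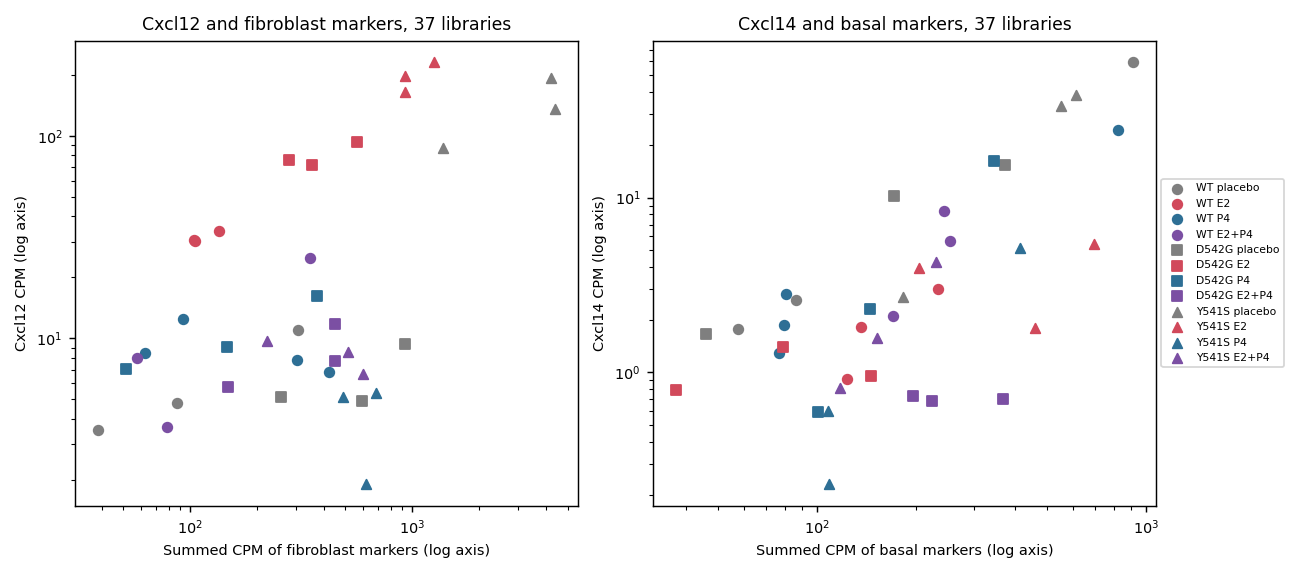
Left, Cxcl12 CPM against the summed CPM of 8 fibroblast markers, and right, Cxcl14 CPM against the summed CPM of 9 basal markers, in each of the 37 libraries, all on log axes, with colour for treatment and shape for genotype. Cxcl12 is high in E2 libraries at low and high fibroblast sums, and the highest Cxcl14 level lies in the library with the highest basal sum, WT placebo 2, while Y541S E2 1 and Y541S E2 3 pair high basal sums with low Cxcl14.

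Cxcl14, the epithelial chemokine, was called in 0 of the 29 comparisons, with 8 at an unadjusted p under 0.05, and in 5 by DESeq2's Wald test. WT placebo held 1.78, 59.7 and 2.61 CPM, WT P4 24.4, 1.30, 1.86 and 2.80 (replicates numbered 2 to 5) and D542G P4 2.31, 16.3 and 0.595, each with the library numbered 2 far above the rest of its group. D542G placebo libraries held 10.2, 1.66 and 15.3 CPM and Y541S placebo libraries 2.69, 33.2 and 38.4. The sum of 9 basal markers was 912 CPM in WT placebo 2 and 821 in WT P4 2, while WT placebo 1 and 3 had 57.4 and 85.9. Some other libraries with high basal sums had little Cxcl14: Y541S E2 1 held a sum of 695 CPM beside 5.44 CPM of Cxcl14, Y541S E2 3 459 beside 1.80 and D542G E2+P4 2 368 beside 0.704. The part of basal cells in these levels was not tested. All 9 comparisons of a hormone with placebo had a negative sign, from -0.50 ± 1.24 log2 (D542G P4, adjusted p = 0.818) to -3.67 ± 1.40 (D542G E2+P4, adjusted p = 0.0535), and the 3 of each genotype share their placebo libraries. E2 libraries held 3.0004, 1.81 and 0.920 CPM in WT, 1.39, 0.794 and 0.950 in D542G and 5.44, 3.97 and 1.80 in Y541S.

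Cxcl16, the membrane-bound ligand of Cxcr6, moved in opposite directions in WT and D542G. WT libraries held 62.5, 51.99 and 63.2 CPM under placebo and 202, 178 and 126 under E2, a rise of 1.51 ± 0.24 on the log2 scale (adjusted p = 2.34e-05). E2+P4 gave 126, 141 and 129 CPM, still 1.16 ± 0.24 on the log2 scale (adjusted p = 0.00068) above placebo, and not called against E2 (-0.36 ± 0.24 log2, adjusted p = 0.326). P4 gave 76.6, 78.1, 101 and 89.8 CPM, above every placebo library but not called (0.55 ± 0.23 log2, adjusted p = 0.25). E2+P4 was above P4 by 0.61 ± 0.22 on the log2 scale (adjusted p = 0.0448). The call for Cxcl16 in WT E2+P4 against WT P4 was lost without any 1 of WT P4 2, WT P4 3, WT E2+P4 1, WT E2+P4 2, WT E2+P4 3 or WT P4 5 (log2 0.56 to 0.64, adjusted p 0.0726 to 0.128), and the call was also lost with no filter on low counts, without the 3 libraries of the later number series and without WT placebo 2, WT P4 2 and Y541S placebo 5 together (log2 0.56 to 0.77, adjusted p 0.0549 to 0.0949). In D542G, placebo held 50.9, 76.5 and 80.4 CPM and E2 41.01, 37.6 and 30.9, the lowest group of all 12, a change of -0.92 ± 0.24 log2 (adjusted p = 0.00802). Cxcl16 in D542G E2 against D542G placebo missed the threshold without D542G E2 3 (log2 -0.82, adjusted p 0.0507). E2+P4 gave 64.7, 122 and 70.6 CPM, 1.23 ± 0.24 on the log2 scale (adjusted p = 0.000398) above E2.

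The Cxcl16 response to E2 in D542G differed from that of WT by -2.43 ± 0.34 log2 (adjusted p = 5.29e-05), and D542G E2 lay below WT E2, at -2.21 ± 0.25 log2 (adjusted p = 2.3e-07). Y541S libraries showed no called change of Cxcl16 under any hormone: placebo held 76.9, 60.8 and 91.9 CPM, E2 64.7, 74.5 and 66.6, P4 70.9, 71.01 and 66.4 and E2+P4 54.5, 56.1 and 59.8. The changes were -0.16 ± 0.24, -0.14 ± 0.24 and -0.43 ± 0.24 log2 (adjusted p = 0.799, 0.771 and 0.223). The responses differed from those of WT by -1.67 ± 0.34 log2 for E2 (adjusted p = 0.0022) and -1.59 ± 0.34 for E2+P4 (adjusted p = 0.00285). Y541S was below WT under E2, at -1.30 ± 0.24 log2 (adjusted p = 0.000635), and under E2+P4, at -1.22 ± 0.24 log2 (adjusted p = 0.000821). Zmynd15 overlaps 9.2% of the span of Cxcl16 and 18.3% of its exon bases, so reads there may be missing from its counts.

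Cxcl17, on chromosome 7 (25400053 to 25412886), was listed at 0 counts in all 37 libraries. Its whole span is covered by the antisense gene 4732471J01Rik, and Cxcl10 and Cxcl11, whose spans are also fully covered by another gene, were at 0 throughout too. The zeros therefore give no level for Cxcl17, and it was not tested.

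In the order of group means, the libraries of neighbouring groups mostly overlapped. Sorting by mean places like groups side by side, so much of this overlap comes from the ordering, and no share over all genes is given. Of the 11 steps between neighbouring groups, the libraries overlapped in all 11 for Cxcl1 and Cxcl2, in 10 for Cxcl3, Cxcl14 and Cxcl15, in 9 for Cxcl5 and Cxcl12, and in 8 for Cxcl16. D542G E2 was the highest group for Cxcl1, Cxcl3, Cxcl5 and Cxcl15, WT E2 for Cxcl2 and Cxcl16, Y541S E2 for Cxcl12 and Y541S placebo for Cxcl14. Over the 37 libraries, which share their groups, log2 CPM of Cxcl3 and Cxcl5 correlated at r = 0.86, Cxcl1 and Cxcl2 at 0.78 and Cxcl3 and Cxcl12 at 0.78. Cxcl15 followed Cxcl5 at 0.72, its neighbours Cxcl3 at 0.62 and Cxcl1 at 0.49, and Cxcl2, at the end of the cluster, at 0.25. Cxcl16 had r = -0.26 with Cxcl3 and Cxcl15 alike, and Cxcl14 lay between -0.23 (Cxcl5) and 0.22 (Cxcl12) with the other 7. These are descriptions with no test.

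Of 10 listed receptors of these ligands, 7 were tested, and Ackr3, the scavenger of Cxcl12, was the only one above 19.7 CPM in any library. It was at 6.92 to 10.01 CPM in WT placebo, 16.5 to 33.8 in WT E2 and 3.94 to 9.12 in WT E2+P4. The rise under E2 was 1.65 ± 0.35 on the log2 scale (adjusted p = 0.00059), and E2+P4 differed from E2 by -2.06 ± 0.35 log2 (adjusted p = 0.000114). Y541S libraries held 6.66 to 12.6 CPM under placebo, 32.3 to 47.8 under E2 (1.94 ± 0.35 log2, adjusted p = 0.00147) and 1.44 to 4.10 under E2+P4, a change from E2 of -3.67 ± 0.38 log2 (adjusted p = 3.39e-07). In D542G it was at 3.99 to 6.47 CPM under placebo and 3.77 to 5.94 under E2, not called (-0.05 ± 0.34 log2, adjusted p = 0.949), and its E2 response differed from that of WT by -1.70 ± 0.49 log2 (adjusted p = 0.0249). Without any 1 of WT placebo 1, WT placebo 3, WT E2 3, D542G placebo 2 or D542G E2 3, Ackr3 in the E2 response of D542G minus that of WT was not called (log2 -1.42 to -1.62, adjusted p 0.0664 to 0.0728). The call for Ackr3 in Y541S E2 against Y541S placebo was lost in a fit of only the groups compared (log2 1.90, adjusted p 0.114). Cxcr4, the signalling receptor of Cxcl12, reached at most 3.99 CPM, and Cxcr2, the receptor of the ELR ligands, was at most at 1.24 CPM, with counts in 9 libraries. Of the other tested receptors, Cxcr3 was at 0 to 2.18 CPM over the 37 libraries, Cxcr5 at 0 to 1.62, Ackr1 at 0 to 19.7 and Ackr2 at 0 to 3.42. Cxcr1 was at 0 to 0.0207 CPM and not tested, and Cxcr6 and Ackr4 were listed at 0 throughout, with another gene over their whole spans. Under E2 against placebo, 2 of the 7 tested receptors were called higher in WT, Ackr3 and Cxcr4 (2.56 ± 0.82 log2, adjusted p = 0.0177), where 31.5% of all genes, 15.6% higher were called, and 1 in Y541S, Ackr3 (4.65%). Leaving out either WT placebo 1 or WT placebo 3 ended the call for Cxcr4 in WT E2 against WT placebo (log2 2.33 to 2.65, adjusted p 0.0511 to 0.0786). Of the remaining comparisons of hormone or genotype, Ackr3 was also called higher in D542G P4 and lower in Y541S E2+P4, each against placebo, and Ackr3 and Cxcr4 lower in D542G E2 than in WT E2. Ackr1, known from venous endothelium, was called lower in Y541S P4 than in Y541S placebo and WT P4, and in the P4 response of Y541S against that of WT.

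Of 6 other CXC ligands, 4 were tested: Cxcl13, the B-cell attractant, Cxcl9, an interferon-induced T-cell attractant, and Pf4 and Ppbp, platelet chemokine genes of the same cluster as Cxcl5. All 4 were called higher in Y541S placebo than in WT placebo, beside 5 of the 8 members and 13.4% of all genes, 7.18% higher. Cxcl13 was at 9.71 to 53.2 CPM there and at 0.898 to 2.83 in WT placebo (4.20 ± 0.97 log2, adjusted p = 0.00362). It fell in Y541S under P4, to 0.469 to 0.640 CPM (-5.76 ± 1.06 log2, adjusted p = 0.000612), and under E2+P4, to 0.752 to 1.78 CPM (-4.47 ± 0.99 log2, adjusted p = 0.00193). In D542G it was at 0.227 to 0.299 CPM under placebo, at 8.09 to 14.2 under E2 (5.39 ± 1.05 log2, adjusted p = 0.000621) and at 0.112 to 0.539 under E2+P4. Cxcl9 was at 0.253 to 0.766 CPM in WT placebo, 3.12 to 10.2 in WT E2 and 4.52 to 10.6 in Y541S placebo. Ppbp, next to Cxcl5, reached 5.30 to 16.6 CPM in Y541S E2 and 0.330 to 7.77 in Y541S placebo, and at most 0.966 in any WT or D542G library. Pf4 was at 0 to 6.82 CPM over the 37 libraries.

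Among 20 chemokines of the CC and CX3C classes, 16 were tested. Under E2, 8 were called higher in WT (31.5% of all genes, 15.6% higher), and 3 higher and 2 lower in D542G (15.7%, 8.36% higher, 7.34% lower). Y541S placebo had 6 higher and 1 lower than WT placebo (13.4%, 7.18% higher). Ccl5, a T-cell and monocyte attractant, was at 0 to 0.460 CPM in WT placebo, 5.77 to 7.85 in WT E2 (5.15 ± 0.78 log2, adjusted p = 1.09e-05) and 10.995 to 20.8 in Y541S placebo (6.34 ± 0.81 log2, adjusted p = 3.13e-06). Cx3cl1, like Cxcl16 a membrane-bound chemokine, was at 327 to 427 CPM in D542G placebo and fell to 138 to 153 CPM under E2 (-1.32 ± 0.16 log2, adjusted p = 2.39e-06), and was higher with E2+P4 than with E2 (0.74 ± 0.16 log2, adjusted p = 0.00128). In WT it was lower with E2+P4 than with E2 (-1.12 ± 0.16 log2, adjusted p = 1.45e-05).

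Of 6 chemokine-processing proteases, Adam10, a sheddase of Cxcl16, was at 812 to 1105 CPM in WT placebo and fell to 268 to 371 CPM under E2 (-1.65 ± 0.22 log2, adjusted p = 2.31e-06). With E2+P4 it was at 755 to 1365 CPM, higher than with E2 (1.70 ± 0.22 log2, adjusted p = 2.75e-06). D542G E2 libraries held 1062 to 1415 CPM, beside 1216 to 1354 under placebo. Furin, a proprotein convertase, was at 81.8 to 139.8 CPM in D542G placebo and rose to 604 to 998 CPM under E2 (2.97 ± 0.42 log2, adjusted p = 1.23e-05). It fell in Y541S under P4 (-1.77 ± 0.40 log2, adjusted p = 0.00428) and E2+P4 (-1.78 ± 0.40 log2, adjusted p = 0.0025). The call for Furin in Y541S P4 against Y541S placebo was lost without Y541S placebo 5 (log2 -1.08, adjusted p 0.0658), and the call was also lost without the 3 libraries of the later number series, without WT placebo 2, WT P4 2 and Y541S placebo 5 together and in a fit of only the groups compared (log2 -1.07 to -1.82, adjusted p 0.064 to 0.0821). The call for Furin in Y541S E2+P4 against Y541S placebo was lost without the 3 libraries of the later number series (log2 -1.08, adjusted p 0.0559). Without Y541S placebo 5 the log2 change of Furin in Y541S E2+P4 against Y541S placebo was -1.08 (adjusted p = 0.0453).

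A list of 36 genes of the IL-1, IL-17, TNF and NF-kB pathways, which act upstream of ELR chemokines, had 34 tested genes. In WT under E2, 12 were called higher and 4 lower, beside 31.5% of all genes, 15.6% higher (median 0.54 log2, against 0.03 over all genes). The 3 with the smallest p were the Toll-like receptor genes Tlr2 (3.17 ± 0.32 log2, adjusted p = 4.46e-08) and Tlr4 (1.69 ± 0.19 log2, adjusted p = 2.1e-07) and the neutrophil growth factor gene Csf3, at 12.7 to 16.3 CPM in WT placebo and 103 to 311 in WT E2 (4.01 ± 0.53 log2, adjusted p = 1.69e-06). The 4 called lower in WT were the receptor genes Il17ra, Il1r1, Il17rc and Tnfrsf1a, where 2923 of all 18426 genes were called lower. In D542G under E2, 6 were higher and 3 lower (15.7% of all genes, 8.36% higher, 7.34% lower). There Tnf was at 4.91 to 13.4 CPM under placebo and 34.2 to 61.98 under E2 (2.45 ± 0.44 log2, adjusted p = 0.000243), while the NF-kB subunit genes Relb (-0.77 ± 0.16 log2, adjusted p = 0.00135) and Nfkb2 (-0.80 ± 0.19 log2, adjusted p = 0.00344) fell. Y541S placebo had 5 higher and 2 lower than WT placebo (13.4% of all genes, 7.18% higher).

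With E2+P4 the inhibitor gene Nfkbia, itself an NF-kB target, was lower than with E2 in WT (-1.16 ± 0.18 log2, adjusted p = 2.95e-05), and likewise among Y541S libraries (-0.98 ± 0.18 log2, adjusted p = 0.000407). In Y541S under E2+P4 against placebo, 1 of the 34 genes was called higher and 12 lower (18.5% of all genes, 10.1% lower), among the latter Nfkbia (-1.23 ± 0.18 log2, adjusted p = 2.79e-05), Zc3h12a (-2.01 ± 0.34 log2, adjusted p = 0.000137) and Tnf, which was at 20.1 to 33.3 CPM under placebo and 3.56 to 5.99 under E2+P4 (-2.37 ± 0.44 log2, adjusted p = 0.000375). Without Y541S placebo 5 the log2 change of Zc3h12a in Y541S E2+P4 against Y541S placebo was -1.31 (adjusted p = 0.00175). In WT, E2+P4 against E2 had 4 higher and 10 lower (18.5% of all genes, 8.28% lower). The medians of the list were -0.55 log2 for the first of these 2 comparisons and -0.80 for the second, beside -0.04 and -0.05 over all genes.

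The genes most like each member were found by Pearson correlation of log2 CPM over the 37 libraries, among 10324 genes other than the members. For Cxcl1 they were Ier3 (0.82), Tnf (0.82) and Galnt15 (0.77), and for Cxcl2 Ier3 (0.77), Ugp2 (0.76) and Galnt15 (0.76). Ier3 and Tnf are early-response genes of inflammation. Cxcl3 was followed by Htra3 (0.91), Krt77 (0.91) and Lrrc8d (0.87), and among the nearest to Cxcl5 were Atp1b3 (0.92) and Trabd2b (0.92). For Cxcl12 the nearest were Ccdc80 (0.90), Htra3 (0.89) and Fxyd5 (0.86), of which Htra3 also stood next to Cxcl3. Cxcl14 was followed by Ccnd2 (0.75), Krt5 (0.72) and Apoe (0.68), where Krt5 is a basal keratin gene from the basal list. Cxcl15 had Gm43085 (0.96), Tmprss11a (0.90) and Memo1 (0.90), and Cxcl16 had Hbegf (0.85), Ldlrad4 (0.81) and Tmem246 (0.80). The values carry no test, and the libraries share groups.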

How the data were processed

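RNA of FACS-sorted mammary mature luminal cells was sequenced as 37 libraries in 12 groups of genotype and pellet, taken from the labels. The deposited tables hold whole-number counts per gene and RPKM values per gene for 52636 Ensembl genes, per the file headers. The genome build was GRCm38 per the submitters' processing notes, and what aligned and counted the reads, and on which strand, is not given in the sources used here. RPKM were deposited but not used for tests. In the deposited counts, genes whose spans are fully covered by another gene, Cxcl17 among them, stood at 0, so their zeros were not read. Symbols came from Ensembl identifiers (52403 of 52636 matched), and positions from GENCODE M21 on GRCm38.

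Counts were tested with edgeR 4.0.16 (R 4.3.3, limma 3.58.1): TMM factors (0.77 to 1.17), filterByExpr (18426 genes kept), a robust quasi-likelihood fit over all 37 libraries with 1 coefficient per group and 25 residual degrees of freedom, and Benjamini-Hochberg adjustment over all genes of each of 29 comparisons, called at 0.05. The standard error is the absolute log2 change divided by the square root of F. Levels between genes were compared per kilobase of the longest protein-coding transcript. Libraries held 25.69 M to 52.24 M counts, and the pairs of replicates differed by more than counting noise (chi-square per degree of freedom 25.1 to 341.7), so no library was treated as a repeat deposit. The 9 genes, the pathway lists and the marker lists were chosen with earlier results of these data known. All 9 members are named. From the other lists, up to 3 called genes with the smallest p in a comparison are named, and every receptor and other CXC ligand with its range. Like patterns are the 3 genes with the highest Pearson correlation of log2 CPM (prior count 2), of which 1 is not reported here. Alternatives were DESeq2's size factors, the Wald test of DESeq2 1.42.0, no filter, a filter of 1 CPM in 3 libraries, fits of only the groups compared, the replicate number as a block, and fits without certain libraries. At the median, same-numbered libraries did not deviate together. The median correlation of their deviations was 0.001 over 178 pairs, against 0.002 over 449 pairs of other numbers. The highest were 0.56 and 0.39, and the numbers were not taken to pair samples. On simulated counts for 18426 genes, the WT E2 comparison recovered 23% of genes changed 2-fold and 55% of those changed 4-fold, with 2 false calls, and the comparison of the Y541S and WT responses to E2 recovered 14% and 53%, with 2 false calls.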

Additional observations from a re-analysis of the deposited data

Results flagged for a closer look

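Cxcl14 in WT P4 had 1 library far from the other 3: WT P4 2 held 24.4 CPM against 1.30, 1.86 and 2.80, a gap of 0.935 of the group's range. The 8 members were searched in this group alone, the single one of 4 libraries. Chance alone can also set a library apart, and the gap carries no test. WT placebo, with 3 libraries, was not searched, and there WT placebo 2 held 59.7 CPM against 1.78 and 2.61. The summed basal markers of the same library were 821 CPM.

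The tested difference between a mutant's hormone response and that of WT passed the threshold (edgeR, Benjamini-Hochberg) for 11 pairs of a member and a comparison, all negative. The WT change had a positive sign in each, with a smaller or negative change in the mutant. That WT change was not called for Cxcl3 under P4 or for Cxcl12 under P4 and E2+P4. Of the E2 response in D542G it was Cxcl16, at -2.43 ± 0.34 log2, and of the E2+P4 response in D542G Cxcl15, at -2.53 ± 0.39. The E2 response in Y541S differed for Cxcl2 (-4.76 ± 1.32), Cxcl5 (-7.82 ± 1.34), Cxcl15 (-1.65 ± 0.39) and Cxcl16 (-1.67 ± 0.34). The P4 response in Y541S differed for Cxcl3 (-5.22 ± 1.40) and Cxcl12 (-5.54 ± 0.72). The E2+P4 response in Y541S differed for Cxcl12 (-4.98 ± 0.72), Cxcl15 (-2.56 ± 0.39) and Cxcl16 (-1.59 ± 0.34). The value for Cxcl5 is a description, since the WT change in it was known when the genes were chosen. For Cxcl5 the Y541S libraries were high before any hormone (52.2, 75.1 and 524 CPM under placebo), and the WT placebo libraries were at 0.888, 0.128 and 0.112 CPM.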

How the results depend on the processing

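Of the 73 calls of a member, 51 kept their direction and their side of the threshold in all alternatives, and of 1095 values of called pairs 977 did so, 118 lost the call and 0 changed direction. Leaving out 1 library at a time, the number of called pairs of a member and a comparison ranged over 9 to 10 for hormones against placebo in WT (9 of 24 with all libraries), 8 to 9 in D542G (9), 5 to 9 in Y541S (9), 5 to 6 for mutants against WT in placebo (6 of 16), 10 to 14 under hormone (13 of 48), 9 to 13 for the differences of response (11 of 48) and 13 to 16 for E2+P4 against a single hormone (16 of 48). The 5 in Y541S came without Y541S E2+P4 1 and without Y541S E2+P4 3. DESeq2's Wald test called 17 differences of response. Beside these and the replicate block, no alternative moved one of these counts by over 1.5 times. The cause of these shifts was not tested.

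With the replicate number as a block, 3 of 24 were called for hormones against placebo in Y541S, and 9 of the 73 calls were lost in all. Lost in Y541S against placebo were Cxcl3 and Cxcl5 under P4, and Cxcl1, Cxcl2, Cxcl3 and Cxcl15 under E2+P4. The others were Cxcl15 in D542G E2+P4 against placebo, Cxcl1 in Y541S placebo against WT placebo, and Cxcl3 in the P4 response of Y541S minus that of WT. The numbers were not taken to pair the libraries, since 10 of 37 correlated best on average with their own number. Single pairs of the same number reached a correlation of 0.56, and those of other numbers 0.39. Pairing within some groups only was not tested. Uncalled changes that turned sign under the block were Cxcl1 in WT P4 (-0.36 log2), and Cxcl16 in Y541S E2 (0.01) and Y541S P4 (0.03).

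Other uncalled changes also turned sign. Without the 3 libraries of the later number series, Cxcl1 in WT P4 was -0.62 log2 and Cxcl16 in Y541S P4 0.01, which was also its value without WT placebo 2, WT P4 2 and Y541S placebo 5 together. Leaving out 1 library, the log2 changes ranged over -0.04 to 0.84 (Cxcl1), -0.44 to 2.67 (Cxcl5) and -0.73 to 0.01 (Cxcl15) in WT P4, -0.22 to 0.13 for Ackr3 in D542G E2, -2.64 to 0.11 for Cxcl14 in D542G P4, -0.29 to 0.99 (Cxcl1) and -0.27 to 0.02 (Cxcl15) in Y541S E2, -0.28 to 0.01 for Cxcl16 in Y541S P4, -1.29 to 1.06 for the Cxcl5 response to E2 in D542G less that of WT, and -0.08 to 0.51 for Cxcl15 in WT E2+P4 against E2.

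Over all genes, 110 of 448 counts of called genes differed by over 1.5 times from the main one. The main count, with the range over the alternatives, was for WT E2 against WT placebo 5796 (3139 to 6616), WT P4 against WT placebo 263 (22 to 755), D542G E2 against D542G placebo 2893 (1817 to 3863), D542G P4 against D542G placebo 3385 (1723 to 4204), Y541S E2 against Y541S placebo 857 (0 to 1878), Y541S P4 against Y541S placebo 2077 (1160 to 2738), Y541S E2+P4 against Y541S placebo 3417 (1922 to 4132), D542G placebo against WT placebo 372 (168 to 669), Y541S placebo against WT placebo 2469 (952 to 3246), D542G E2 against WT E2 5368 (2561 to 6011), D542G P4 against WT P4 2402 (1285 to 3175), D542G E2+P4 against WT E2+P4 1232 (127 to 1951), Y541S E2 against WT E2 2262 (535 to 3085), Y541S E2+P4 against WT E2+P4 2677 (1615 to 3478), P4 response of D542G less that of WT 617 (229 to 1277), E2+P4 response of D542G less that of WT 792 (382 to 1429), E2 response of Y541S less that of WT 1478 (394 to 2187), P4 response of Y541S less that of WT 1350 (349 to 2134), E2+P4 response of Y541S less that of WT 1599 (933 to 2287), WT E2+P4 against WT E2 3406 (892 to 4176), WT E2+P4 against WT P4 4274 (2792 to 4967), D542G E2+P4 against D542G P4 953 (215 to 1550), Y541S E2+P4 against Y541S E2 1918 (1196 to 3535) and Y541S E2+P4 against Y541S P4 310 (96 to 1966).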
